A study of Mus musculus with 13 samples.

Results

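Lungs of mice that lack the cannabinoid receptor CB1R (CB1R KO) were compared, 14 days after bleomycin, with lungs of control mice, to describe what is still changed in the knockout after the injury. The libraries were taken by the treatment given in their labels and by nothing measured in them: 4 libraries labelled CB1R knockout with bleomycin (8, 9, 10 and 11) against 4 control libraries (3, 21, 24 and 26), which are 8 of the 13 libraries of the series. The other 5 are wildtype (WT) bleomycin libraries (4, 2, 5, 4-B2 and 7), which entered the same fit and are set beside the knockout below. Each library is the lower right lobe of one mouse, collected after lung function had been measured, and poly(A) RNA was sequenced as paired reads of 150 bases. The WT mice of the study were C57BL/6J males obtained at 13 weeks of age, and the Cnr1-/- mice were on the same background; the age and sex of the knockout mice are not given separately in the sources used here. Bleomycin was given to both genotypes once, by the oropharyngeal route, at 1 U per kg. The control libraries carry wild-type names, and the methods state that control groups received sterile saline. CB1R KO lungs without bleomycin were not analysed here, so genotype and bleomycin cannot be told apart in the comparison with control.

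CB1R, the product of Cnr1, is the cannabinoid receptor best known from the nervous system, and it is also present in peripheral tissues, where endocannabinoids made from membrane lipids activate it. Bleomycin breaks DNA. A dose to the airways injures the alveolar epithelium, after which inflammatory cells enter, proliferating cells repair the wall, and fibroblasts lay down collagen, elastin and fibronectin. In such lungs, monocyte-derived macrophages and epithelial cells caught between the type II and type I state are known to gather around the scar.

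Levels are given in CPM, counts scaled by the total of each library and its TMM normalization factor. Libraries are in the order 3, 21, 24, 26 for control and 8, 9, 10, 11 for CB1R KO. CPM is not divided by gene length, so it compares libraries and not genes. Changes are log2 fold changes of CB1R KO bleomycin over control with their standard error, and p values come from edgeR (quasi-likelihood) and were adjusted by Benjamini-Hochberg over the 15315 genes tested of 20270 listed. A gene is said to rise or fall, or to be called, where its adjusted p is under 0.05.

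The CB1R KO libraries were not alike among themselves. Library 11 held 53463884 estimated counts and the other 12 libraries of the series between 14615904 and 16662580. On the leading principal component of all genes tested, which carried 53.9% of the variance, control libraries lay between -61.2 and -46.9 and WT bleomycin libraries between 27.8 and 41.7. CB1R KO libraries 8 and 9 lay between those groups, at 0.95 and -1.2, while libraries 10 and 11, at 27.8 and 20.7, lay at or near the WT bleomycin range. Control library 3 stood apart from the other control libraries on the next component (14.2 against -12.1 to -9.33; 7.91% of the variance). On that component CB1R KO libraries lay at 12.7 to 21.4 and WT bleomycin libraries at -28.9 to 9.46. WT libraries 4-B2 and 7 (-28.9 and -20.3) and control library 26 (-12.1), whose labels hold capital letters, were the lowest of their groups. The source of this spread was not tested. All libraries were rich in lung RNA: Sftpc, the surfactant protein of type II cells, ranged over 7528 to 12615 CPM in CB1R KO and 10352 to 12479 in control libraries, and Ager, a type I cell gene, over 1397 to 2138 and 1711 to 1928.

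**Figure D1:**
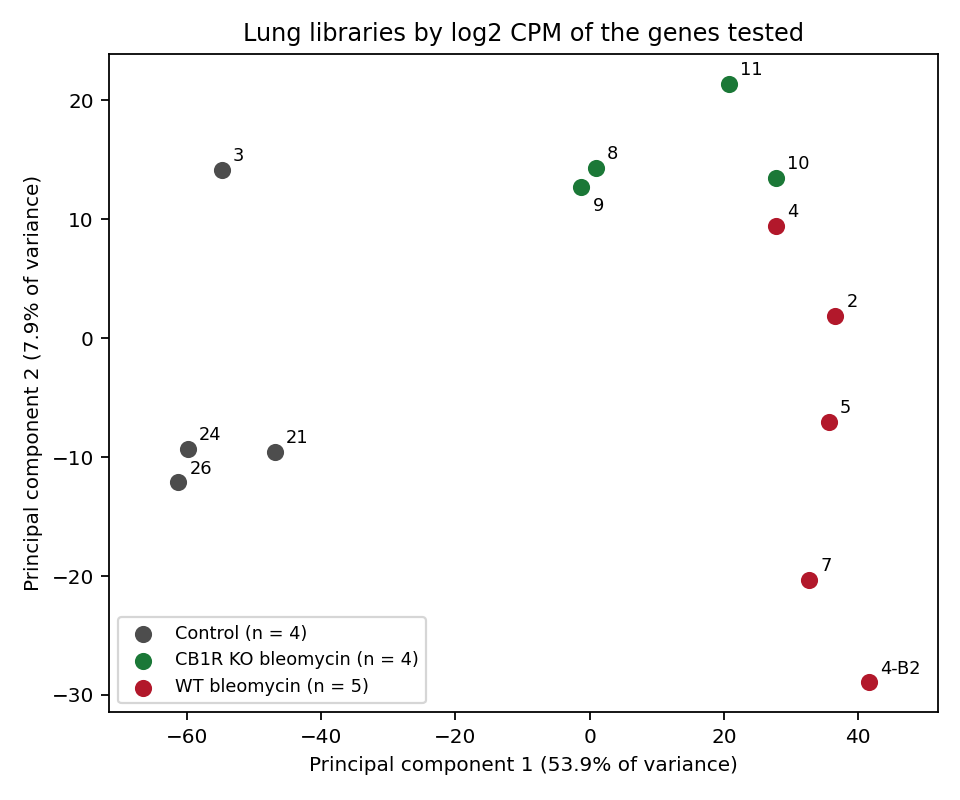
Position of the 13 libraries on the 2 leading principal components of log2 CPM, with each library marked by its number and coloured by group. CB1R KO libraries 8 and 9 sit midway between control and WT bleomycin on the horizontal axis (53.9% of variance), where 10 and 11 sit by the WT bleomycin libraries. On the vertical axis (7.91%) control library 3 sits with the CB1R KO libraries, above the WT bleomycin libraries.

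Cnr1 itself was counted at 4.10, 1.62, 2.88 and 2.06 CPM in the control libraries and at 5.63, 2.47, 4.60 and 3.47 in those labelled CB1R KO. The WT bleomycin libraries 4, 2, 5, 4-B2 and 7 held 6.97, 5.68, 6.56, 3.46 and 6.17 CPM. The CB1R KO and control ranges overlapped (log2 fold change 0.58, standard error 0.31, adjusted p = 0.158), and the interval of the difference from WT bleomycin included 0 (log2 difference -0.53, 95% interval -1.13 to 0.08, adjusted p = 0.367). Where along Cnr1 the reads fell is not given in the sources used here, so these counts do not check the genotype, and the directions below rest on the labels.

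Against control, 5415 genes differed in CB1R KO bleomycin lungs, 35.4% of those tested: 2911 rose (19.0%) and 2504 fell (16.3%). Of these, 1069 changed by more than 2-fold, 760 upward and 309 downward, and the median over all genes tested was -0.01. Counts of list members below are to be read against the 35.4% called, 19.0% higher and 16.3% lower, of all genes tested. With limma fitted to log2(TPM + 1), 70.3% of the calls were higher, against 53.8% here. WT bleomycin lungs, tested against the same control libraries in the same fit, gave 7492 calls (48.9%), and the direct test of CB1R KO against WT bleomycin gave 150 (0.979%). The comparisons of each genotype with control share their control libraries, so their values are set side by side below and only the direct test is used for a difference between the genotypes. Its calls rested on single libraries: of the 40 genes named here that passed it, 3 kept the call without CB1R KO library 8, 0 without library 9 and 1 without library 11, all 40 without library 10, and 12 to 37 when a WT bleomycin library was left out. With control library 26 and WT libraries 4-B2 and 7 left out together, whose labels unlike the others hold capital letters, 2 of the 40 kept it. Beside many calls of the direct test the highest adjusted p with 1 of the 13 libraries left out is given. For the 40 genes it ran from 0.0555 to 0.154, also where it is not printed.

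The largest rises and falls are taken here among called genes that averaged at least 5 CPM and whose CB1R KO and control libraries did not overlap. Over all genes tested the log2 fold change ran from -3.28 to 6.79. Thbs4, a matricellular thrombospondin, was at 0.357, 0.601, 0.320 and 1.10 CPM in control and 19.0, 18.3, 31.7 and 19.2 in CB1R KO libraries (log2 fold change 5.21, standard error 0.41, adjusted p = 9.52e-07). Every knockout library was above every control library, and the WT value was 6.11. Elastin, the core of the elastic fibre, went from 236, 175, 106 and 147 to 1390.2, 1999, 2654 and 3799 CPM (Eln, log2 fold change 3.89, standard error 0.33, adjusted p = 1.83e-06; WT 4.22). Libraries 10 and 11 were higher in Eln than 8 and 9, and the lowest of the 4 was well above the highest control. Tenascin C, a glycoprotein of healing wounds, was at 24.1, 37.0, 22.2 and 15.8 CPM in control and 244, 239, 418 and 281 in CB1R KO libraries (Tnc, log2 fold change 3.57, standard error 0.25, adjusted p = 4.69e-07). Further genes among the 12 largest rises so taken were Cemip, which takes part in hyaluronan breakdown (4.52), Lama1 of basement membranes (4.16), the secreted BMP antagonist Grem1 (4.13), the adhesion molecule Chl1 (3.77), the aggrecan-cutting protease Adamts4 (3.74), the acute phase gene Saa3 (3.37) and the matrix protein Cilp (3.36). The mitotic genes Pimreg (3.63) and Psrc1 (3.50) complete them. In the direct test, only Adamts4 of these 12 differed between the genotypes (log2 difference -1.18, 95% interval -1.65 to -0.71, adjusted p = 0.0266, up to 0.105 with 1 library left out), and the interval of Eln ran from -0.92 to 0.26.

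The rises with the lowest p were smaller and tighter. Ccng1, cyclin G1 and a target of p53, was at 102, 117, 97.5 and 108 CPM in control and 291, 264, 293 and 278 in CB1R KO libraries (log2 fold change 1.41, standard error 0.07, adjusted p = 4.61e-08). Cathepsin S, a lysosomal protease of antigen-presenting cells, was at 200.1, 247, 173 and 161 and 943, 746, 964 and 899 (Ctss, log2 fold change 2.19, standard error 0.12, adjusted p = 1.5e-07). Both genes had almost the same change in WT lungs (1.36 and 2.18), and the intervals of the direct difference were -0.09 to 0.18 for Ccng1 and -0.23 to 0.24 for Ctss. Ppic, the cyclophilin C gene (1.21), and Spp1, the osteopontin of macrophages (3.33), were also among them.

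Bex2, best known from neural tissue, was at 27.5, 23.4, 28.4 and 30.9 CPM in control and 2.94, 4.89, 3.11 and 4.15 in CB1R KO libraries (log2 fold change -2.85, standard error 0.17, adjusted p = 1.89e-07; WT -3.19), and among the genes so taken it was first both by size and by p. Ackr4, a scavenging receptor of lymph node chemokines, was at 11.7, 13.8, 9.86 and 10.2 and 3.60, 3.26, 1.43 and 1.66 (log2 fold change -2.23, standard error 0.31, adjusted p = 8.38e-05). The others were Ankrd63 (-2.85), Colq, which anchors acetylcholinesterase (-2.25), the Fas inhibitor Faim2 (-2.21), the ciliary gene Cys1 (-2.04), the IGF carrier Igfbp3 (-2.04), the glutamate receptor subunit Gria1 (-2.02), Tmem132d (-1.90), the lectin Clec12b (-1.87), Nrn1 (-1.87) and the kinase Sbk3 (-1.84). By p, Bex2 was followed by Aox3, Cyp2f2 and Gstm1, enzymes that metabolise foreign compounds, and by the calcium channel subunit Cacna2d4 (-1.62). For all 12 of the largest falls the WT value was further from 0 than the knockout value, and none of the 12 passed the direct test. For Gria1 the difference was 1.25 (95% interval 0.39 to 2.11, adjusted p = 0.143).

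**Figure D2:**
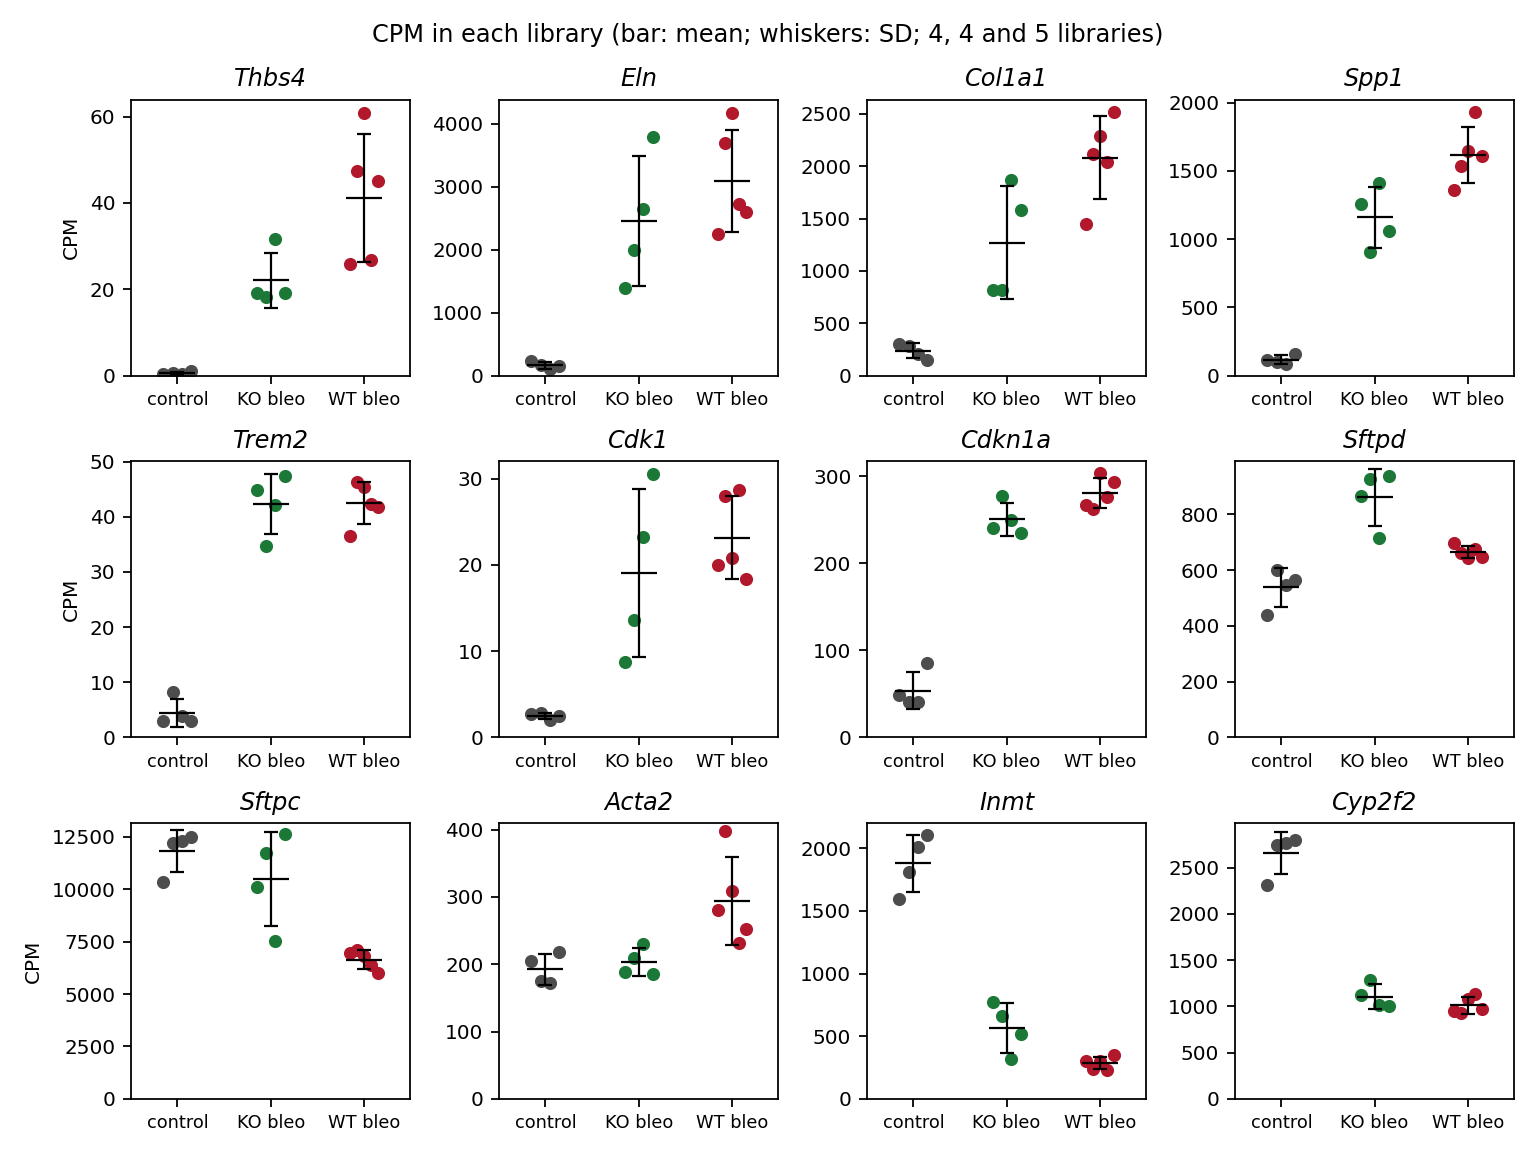
CPM of 12 genes in each library of the control, WT bleomycin and CB1R KO bleomycin groups, each panel with its own linear axis from 0; points are libraries, bars the mean and whiskers the SD. Thbs4, Eln, Col1a1, Spp1, Trem2, Cdk1, Cdkn1a and Sftpd lie above control in every CB1R KO library, Inmt and Cyp2f2 lie below it in every one, and the CB1R KO ranges of Acta2 and Sftpc overlap control.

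Cell division genes rose without exception in the list examined. All 30 mitosis genes of the list rose in CB1R KO lungs, with a median log2 fold change of 2.30, against 19.0% of all genes tested and their median of -0.01. In WT lungs 30 rose, with a median of 2.46, and none of the list differed in the direct test. The largest rises were those of the kinetochore gene Cenpf (2.96), of Cdk1, the kinase that starts mitosis (2.95), and of its partner cyclin Ccnb1 (2.84). Cdk1 was at 2.67, 2.82, 1.99 and 2.51 CPM in control and 8.76, 13.6, 23.3 and 30.6 in CB1R KO libraries (log2 fold change 2.95, standard error 0.34, adjusted p = 2.22e-05). Library 8 was lowest and library 11 highest in Cdk1, and the same held for the CPM summed over the list, which was 369, 482, 852 and 1041 in CB1R KO and 136, 186, 129 and 124 in control libraries. The proliferation marker Mki67 was at 14.4 to 21.5 CPM in control and 53.6 to 124 in CB1R KO libraries (log2 fold change 2.47, standard error 0.25, adjusted p = 6.88e-06). Among the 30, Cenpa, the histone of centromeres, was the one named here whose call rested on single libraries (0.87, where the adjusted p was between 0.0552 and 0.0732 without control library 24 or CB1R KO libraries 10 or 11).

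Genes that act together in mitosis carry known promoter elements: the cell cycle homology region (CHR), TTTGAA, and the CCAAT box. The letters TTTGAA on either strand were in the promoter window, 250 bases before to 50 after the start, of 20 of the 26 mitosis genes with a RefSeq window (76.9%), against 12.7% of the 12064 windows of genes tested. CCAAT on either strand was in 21 of the 26 (80.8%, against 38.1%). It was also common outside this list, in 12 of 16 windows of circadian clock genes (75%) and 14 of 25 of DNA replication genes (56%). Both elements were in 18 of the 26 mitosis windows (69.2%, against 5.17%). These letters do not overlap one another. The windows of 4 genes of the list, with CHR and CCAAT letters or their reverse complements in capitals, read 5' to 3' along the gene in RefSeq GRCm38.p6:
Cdk1 (chr10:69352863-69353162, minus strand): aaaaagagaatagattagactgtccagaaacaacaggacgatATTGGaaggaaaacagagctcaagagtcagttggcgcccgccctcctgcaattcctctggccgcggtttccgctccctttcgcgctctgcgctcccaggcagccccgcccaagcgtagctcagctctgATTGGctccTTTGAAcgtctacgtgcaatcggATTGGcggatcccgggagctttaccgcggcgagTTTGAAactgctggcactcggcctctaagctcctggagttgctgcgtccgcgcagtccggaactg
Ccnb2 (chr9:70421505-70421804, minus strand): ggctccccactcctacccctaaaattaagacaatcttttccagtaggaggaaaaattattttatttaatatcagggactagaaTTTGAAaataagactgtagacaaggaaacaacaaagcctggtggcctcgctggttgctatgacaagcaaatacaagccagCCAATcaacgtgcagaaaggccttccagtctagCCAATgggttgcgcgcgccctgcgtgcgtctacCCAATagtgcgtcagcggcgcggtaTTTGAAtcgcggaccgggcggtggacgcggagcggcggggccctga
Cdc20 (chr4:118437294-118437593, minus strand): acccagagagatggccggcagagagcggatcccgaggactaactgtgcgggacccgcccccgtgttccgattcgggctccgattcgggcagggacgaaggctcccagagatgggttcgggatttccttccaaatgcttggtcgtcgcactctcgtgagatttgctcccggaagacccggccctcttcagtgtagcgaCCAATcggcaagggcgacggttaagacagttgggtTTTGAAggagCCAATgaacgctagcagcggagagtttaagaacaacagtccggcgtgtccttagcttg
Plk1 (chr7:122159185-122159484, plus strand): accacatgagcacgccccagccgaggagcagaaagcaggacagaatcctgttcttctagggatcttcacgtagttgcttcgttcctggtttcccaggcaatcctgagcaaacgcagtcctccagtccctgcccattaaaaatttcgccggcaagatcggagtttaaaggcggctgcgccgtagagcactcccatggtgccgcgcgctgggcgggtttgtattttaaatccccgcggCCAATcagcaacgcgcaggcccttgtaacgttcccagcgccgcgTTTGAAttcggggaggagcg
The RNA of Ccnb2 rose by 2.36, of Cdc20 by 2.25 and of Plk1 by 1.78. How near the start a match can lie was set by the window. A match is a description of the sequence and not evidence that a factor bound there.

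DNA replication genes rose less. Of 30, 23 rose and none fell (median 0.81; WT 28, median 0.99), and TTTGAA was in the windows of 3 of their 25 (12%). None of these genes differed from WT in the direct test. The ribonucleotide reductase subunit Rrm2 (1.88), Uhrf1, which maintains DNA methylation (1.85), and the thymidine kinase Tk1 (1.67) led them. Targets of p53 moved with them: 16 of 22 rose, none fell, and the median was 0.79 (WT 0.90). Cdkn1a, the cell cycle inhibitor p21, was at 48.7, 40.1, 40.5 and 85.2 CPM in control and 240.2, 277, 249.7 and 235 in CB1R KO libraries (log2 fold change 2.22, standard error 0.19, adjusted p = 1.9e-06). Its knockout values were tightly grouped, and so were those of Gdf15, a secreted stress factor, at 1.66, 1.56, 0.704 and 1.74 and 12, 9.35, 11.9 and 11.1 (log2 fold change 2.96, standard error 0.21, adjusted p = 4.23e-07). Psrc1 had the largest rise of the list (3.50), and Ckap2, a spindle gene, rose by 3.23. Mdm2, the ubiquitin ligase of p53, had a small rise (log2 fold change 0.29, standard error 0.06, adjusted p = 0.0016), and Perp did not pass the test (log2 fold change -0.15, standard error 0.17, adjusted p = 0.521). In the direct test none of the p53 list differed. The difference of Cdkn1a from WT was -0.17 (95% interval -0.53 to 0.19).

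Matrix genes remained raised across families. Of 33 collagen chain genes, 25 rose and 3 fell in CB1R KO lungs (median 0.91), where WT lungs had 25 and 5 (median 1.24). Col1a1, the main chain of fibrillar collagen, was at 303, 284, 209 and 152 CPM in control and 813, 815, 1864 and 1583 in CB1R KO libraries (log2 fold change 2.42, standard error 0.29, adjusted p = 2.94e-05). Libraries 8 and 9 were the lowest and library 10 the highest, and the ranges did not meet. Col3a1 rose by 2.46, Col1a2 by 1.84 and the minor fibrillar chains Col11a1 and Col24a1 by 4.41 and 3.68 from under 1 CPM. In the direct test 3 chains were lower than in WT lungs, Col28a1 among them (2.59 against 3.59 in WT; log2 difference -1.0, 95% interval -1.45 to -0.55, adjusted p = 0.0407, up to 0.144 with 1 library left out), while Col1a1 had a direct difference of -0.71 with an interval of -1.28 to -0.15 and an adjusted p = 0.19. The chains that fell were Col23a1 (-0.80), the hemidesmosome collagen Col17a1 (-1.04, where the adjusted p was 0.0621 without CB1R KO library 10 and 0.0602 without CB1R KO library 11) and Col8a2 (-0.42, where the adjusted p was between 0.0508 and 0.072 without control libraries 3 or 21 or CB1R KO libraries 9 or 11). Leaving out CB1R KO library 11 left 1 chain that fell.

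**Figure D3:**
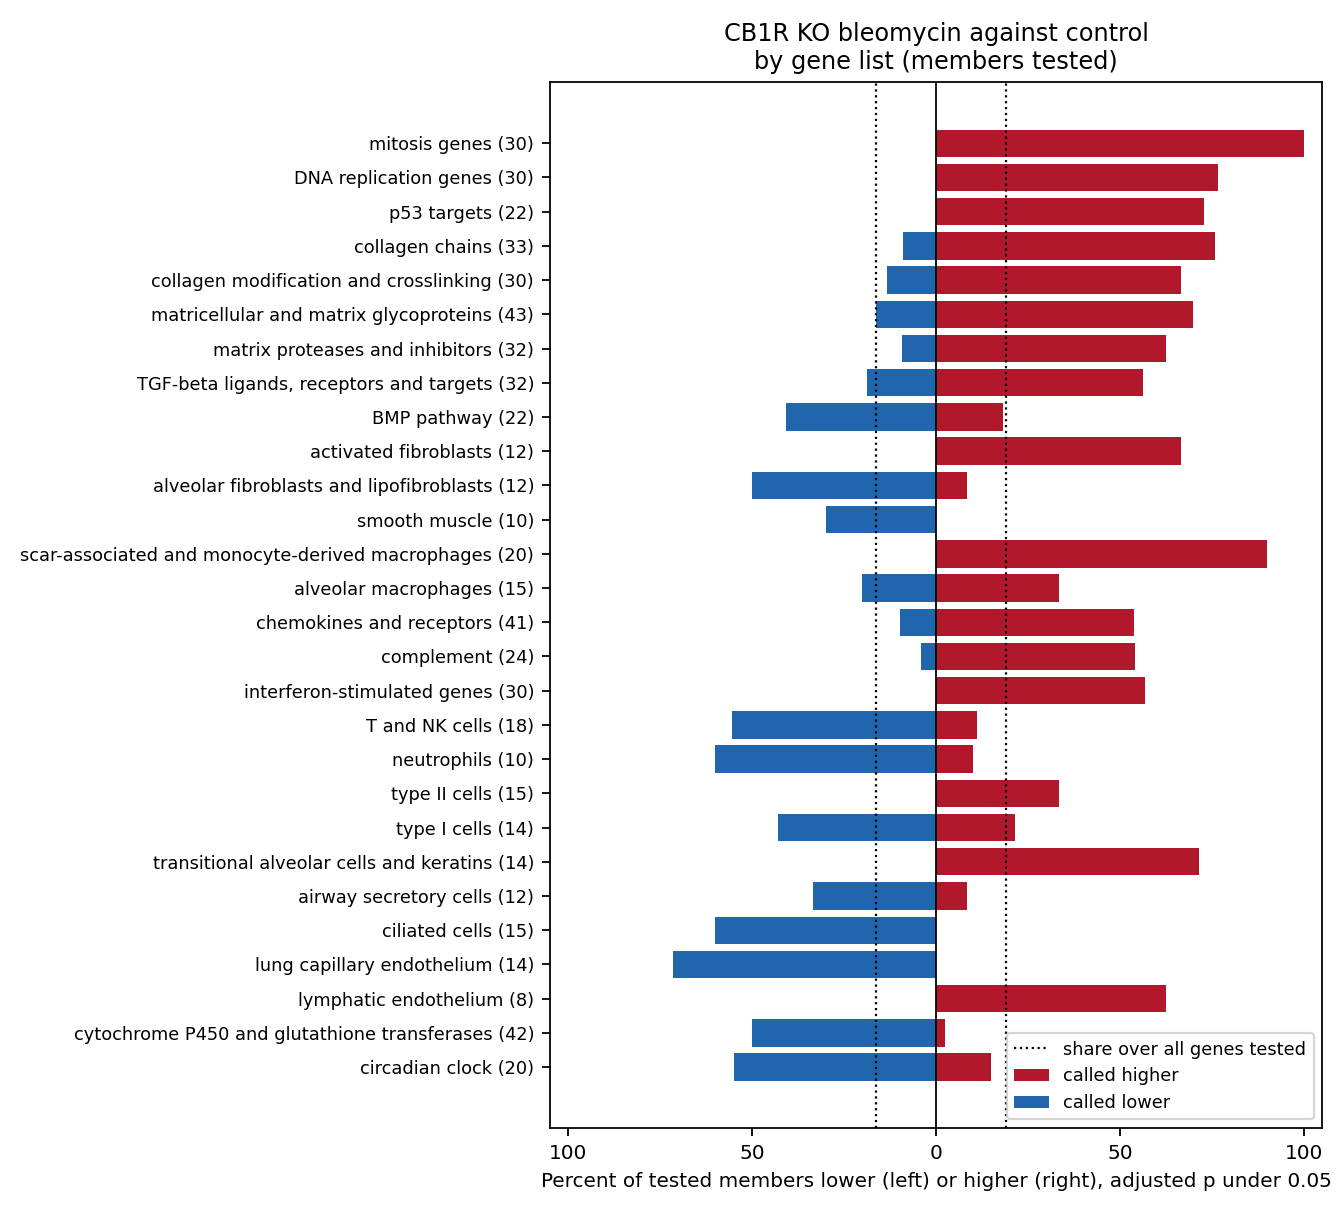
Percent of the tested genes of each list that were called lower (blue, to the left) or higher (red, to the right) in CB1R KO bleomycin against control lungs, with the number tested in brackets and dotted lines at the shares over all genes tested (16.3% lower, 19.0% higher). The mitosis genes reach 100% higher with none lower, while the lung capillary endothelium and ciliated cell lists have bars on the lower side alone.

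Enzymes that finish and crosslink collagen followed (20 of 30 rose, 4 fell). The prolyl hydroxylase subunit P4ha3 (2.88), the procollagen peptidase Adamts2 (1.72) and the crosslinking oxidase Loxl2 (1.59) rose most. Lox, the founding lysyl oxidase, was at 73.3, 65.3, 70.1 and 70.4 CPM in control and 144, 171, 313 and 197 in CB1R KO libraries (log2 fold change 1.56, standard error 0.19, adjusted p = 3.36e-05), and it was lower than in WT lungs (log2 difference -0.85, 95% interval -1.22 to -0.47, adjusted p = 0.0396, up to 0.144 with 1 library left out). The procollagen enhancer Pcolce2 (-1.04), the collagen galactosyltransferase Colgalt2 (-1.04) and the prolyl hydroxylase P3h2 (-0.70) fell. Of 43 matrix glycoproteins, 30 rose and 7 fell (median 0.61). Fibronectin went from 623, 691, 596 and 688 to 2307, 2176, 4269 and 2351 CPM (Fn1, log2 fold change 2.10, standard error 0.19, adjusted p = 3.53e-06). Library 10 stood above the other knockout libraries in Fn1, and the group was below WT in the direct test (log2 difference -0.86, 95% interval -1.24 to -0.48, adjusted p = 0.0389, up to 0.144 with 1 library left out). The small matrix proteins that fell were Cilp2 (-1.74), Omd (-1.33) and Ogn (-0.99), proteoglycans except for Cilp2.

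Proteases and their inhibitors rose in 20 of 32 and fell in 3. Timp1, the metalloproteinase inhibitor that marks fibrotic lung, was at 3.27, 9.73, 4.29 and 3.41 CPM in control and 30.1, 32.3, 76.4 and 42.2 in CB1R KO libraries (log2 fold change 3.12, standard error 0.35, adjusted p = 1.81e-05). Its WT value was 4.58, and the genotypes differed (log2 difference -1.46, 95% interval -2.07 to -0.85, adjusted p = 0.0314, up to 0.121 with 1 library left out). Mmp10 (4.26) and Adamts12 (3.13) rose, while Mmp9, a gelatinase of neutrophils (-1.54), and the epithelial Mmp28 (-0.83) fell.

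Among fibroblast genes, those of activated cells rose in part. Of 12 markers, 8 rose, none fell and the median was 1.64, where all 12 had risen in WT lungs (median 2.64). In the direct test, 2 of the 12 differed, both lower than in WT lungs. Cthrc1, which marks collagen-making cells of scars, was at 3.03, 4.81, 3.14 and 4.25 CPM in control and 8.50, 9.23, 22.2 and 10.7 in CB1R KO libraries (log2 fold change 1.73, standard error 0.30, adjusted p = 5.74e-04). Lrrc15, of the same cells, rose by 4.02 from under 1 CPM, and Sfrp1 by 2.16. Of the 4 that did not pass the test, Acta2, the actin of smooth muscle and myofibroblasts, was at 205, 175, 172 and 219 CPM in control and 189, 209.6, 229.6 and 186 in CB1R KO libraries (log2 fold change 0.08, standard error 0.14, adjusted p = 0.698). The others were Tagln (0.16), Postn (0.10) and Runx1 (0.30). For Acta2 the interval against control was -0.23 to 0.38 and that against WT -0.82 to -0.24 (adjusted p = 0.0728). Tagln was lower than in WT lungs (log2 difference -0.63, 95% interval -0.84 to -0.43, adjusted p = 0.0177, up to 0.0679 with 1 library left out). Summed over the list, CB1R KO libraries held 1642, 1655, 2235 and 1906 CPM, between the control range of 1012 to 1093 and the WT range of 2314 to 3057.

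Markers of alveolar fibroblasts and lipofibroblasts, which support the type II cells, moved the other way: 6 of 12 fell and 1 rose (WT 10 and 1). In the direct test, 3 of the 12 differed, all higher than in WT lungs. In bulk lung, fewer cells of a type and less RNA per cell cannot be told apart, here or below. Inmt, a methyltransferase strong in lung fibroblasts, was at 1594, 1811, 2009 and 2108 CPM in control and 776, 659, 314 and 518 in CB1R KO libraries (log2 fold change -1.73, standard error 0.22, adjusted p = 4.5e-05). Libraries 8 and 9 kept the higher values, and the group was above WT (log2 difference 0.99, 95% interval 0.56 to 1.42, adjusted p = 0.0371, up to 0.136 with 1 library left out). The amino acid transporter Slc7a10 showed the same order (-1.33 in CB1R KO, -3.02 in WT; log2 difference 1.68, 95% interval 0.94 to 2.42, adjusted p = 0.0379, up to 0.144 with 1 library left out). The carboxylesterase Ces1d fell (-0.84) and the lipid droplet gene Plin2 was the one that rose (0.79). Of 10 smooth muscle genes 3 passed the test (30%, against 35.4% of all genes tested), all lower, with Myh11 (-0.58), Lmod1 (-0.55) and Mylk (-0.35), and 1 fell without control library 3 or CB1R KO library 10 or 11. Leaving out library 11 gave 1 that rose, and the calls of Lmod1 (the adjusted p was between 0.051 and 0.135 without control libraries 3, 21 or 26 or WT libraries 4, 2 or 7 or CB1R KO libraries 10 or 11) and Mylk (the adjusted p was between 0.0556 and 0.0752 without control libraries 3 or 24 or CB1R KO libraries 10 or 11) were lost in turn. Pericyte genes fell in 5 of 8, among them the guanylate cyclase subunit Gucy1b1 (-0.52), Higd1b (-0.49) and Notch3 (-0.42).

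Signalling genes of the scar changed unevenly. In the TGF-beta list, 18 of 32 rose and 6 fell (median 0.40, WT 0.72). Of the ligands, Inhba, the activin A chain, was at 3.09, 7.15, 2.75 and 4.45 CPM in control and 12.3, 7.96, 22.6 and 12.3 in CB1R KO libraries (log2 fold change 1.65, standard error 0.31, adjusted p = 9.82e-04), below WT (log2 difference -1.41, 95% interval -1.98 to -0.84, adjusted p = 0.0281, up to 0.104 with 1 library left out). Tgfb1 was at 84.2 to 117 and 97.0 to 131 (log2 fold change 0.17, standard error 0.10, adjusted p = 0.213), a difference the test did not separate from 0. The activin antagonist Fst rose (1.52) and was also below WT (log2 difference -1.49, 95% interval -2.0 to -0.99, adjusted p = 0.0177, up to 0.0684 with 1 library left out). Itgb6, the epithelial integrin chain that frees latent TGF-beta, rose by 1.65 and the latent binding protein Ltbp2 by 1.55, with direct differences of -0.11 (95% interval -0.65 to 0.43) and -0.49 (-0.83 to -0.15). The inhibitory Smad6 (-1.30), the coreceptor Tgfbr3 (-1.05) and Ltbp4 (-0.91) fell. The target Ccn2 was at 206, 413, 378 and 422 CPM in control and 338, 406, 460.2 and 382 in CB1R KO libraries, with overlapping groups (log2 fold change 0.16, standard error 0.18, adjusted p = 0.528).

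BMP genes fell in 9 of 22 and rose in 4. The antagonists Grem1 (4.13) and Nog (2.26) rose, and the antagonist Chrdl1 (-1.62), the ligand Bmp6 (-1.34) and the signal transducer Smad9 (-1.21) fell. Bmp6 was at 314, 258, 239 and 209 CPM in control and 137, 129, 61.1 and 77.8 in CB1R KO libraries, without overlap. The Wnt list was split, with 9 higher and 12 lower of 32 (median -0.08, which took the opposite sign in limma on log2 TPM). The largest rises were those of the ligand Wnt10a (4.41, from under 1 CPM) and of Dkk2 (2.82) and Sfrp1 (2.16), which antagonise Wnt ligands or their receptors. Rspo1, which amplifies Wnt signals (-1.19), and the transcription factor Lef1 (-0.96) fell.

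Macrophage genes remained high. Of 20 markers of scar-associated and monocyte-derived macrophages, 18 rose and none fell (median 1.52; WT 17, median 1.71). Trem2, a lipid-sensing receptor, was at 2.91, 8.23, 3.84 and 2.90 CPM in control and 44.9, 34.7, 42.1 and 47.4 in CB1R KO libraries (log2 fold change 3.24, standard error 0.24, adjusted p = 7.1e-07). Its direct difference from WT was 0.00 (95% interval -0.42 to 0.41). Gpnmb, a glycoprotein of lipid-laden macrophages, was at 22.2, 38.6, 24.1 and 20.6 and 269.6, 204, 153 and 185 (log2 fold change 2.94, standard error 0.21, adjusted p = 4.69e-07). The WT libraries 4, 2, 5, 4-B2 and 7 held 141, 150, 111, 109 and 118 CPM of Gpnmb, all below the knockout libraries, yet the direct test did not pass after adjustment (log2 difference 0.69, 95% interval 0.30 to 1.07, adjusted p = 0.0783). Spp1 was at 115, 103, 83.3 and 161 CPM in control and 1260.0, 908, 1414 and 1057 in CB1R KO libraries (log2 fold change 3.33, standard error 0.19, adjusted p = 1.55e-07). The elastase Mmp12 was at 3.15, 40.7, 5.19 and 4.25 CPM in control, with library 21 high, and 87.5, 66.1, 74.6 and 59.5 in CB1R KO libraries (log2 fold change 2.42, standard error 0.64, adjusted p = 0.00948). The 2 markers that did not pass were Arg1 (1.78, 48.1, 1.86 and 1.80 CPM in control, with library 21 high again; log2 fold change 0.28, standard error 0.87, adjusted p = 0.825) and the monocyte gene Ly6c2 (log2 fold change -0.34, standard error 0.27, adjusted p = 0.344). The list sum was 4244 to 5917 CPM in CB1R KO, 1580.0 to 1893 in control and 5645 to 6313 in WT bleomycin libraries.

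Markers of resident alveolar macrophages were mixed (5 rose and 3 fell of 15, 53.3% called, against 35.4% of all genes tested). The integrin Itgax rose by 1.21, the lysosomal pump subunit Atp6v0d2 by 1.15 and the mannose receptor Mrc1 by 0.86. Ear1, a secreted ribonuclease (-1.65), and Krt79 (-1.55) fell, as did Car4, which is also in the capillary list below. The defining genes Siglecf (0.16, adjusted p = 0.57) and Pparg (0.16, adjusted p = 0.4) were not separated from control. The summed level was 1067, 2416, 1138 and 1201 CPM in the control and 1337, 1899.9, 1945 and 1722 in the CB1R KO libraries, with control library 21 highest.

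Chemokines and their receptors rose in 22 of 41 and fell in 4 (median 0.88). Ackr1, the chemokine-binding receptor of venules, had the largest rise (3.82), followed by the interferon-induced T cell attractants Cxcl10 (1.55, 1.02, 1.28 and 1.22 CPM in control, 9.35, 6.51, 18.0 and 12.3 in CB1R KO; log2 fold change 3.18, standard error 0.29, adjusted p = 3.09e-06) and Cxcl9 (3.04). Library 9 was the lowest of the knockout libraries in Cxcl10 and still above control. The monocyte attractant Ccl2 was at 0.654, 0.781, 0.576 and 1.48 CPM in control and 5.30, 1.81, 5.90 and 3.25 in CB1R KO libraries (log2 fold change 2.20, standard error 0.36, adjusted p = 3.52e-04), below WT (log2 difference -1.29, 95% interval -1.90 to -0.67, adjusted p = 0.0478, up to 0.122 with 1 library left out). Cx3cl1, which encodes fractalkine (-0.88), and the leukocyte receptor gene Cxcr4 (-0.50) fell. Of 24 complement genes, 13 rose and 1 fell. C1qa, C1qb and C1qc, the 3 chains that macrophages make of the starter molecule, rose by 2.43, 2.54 and 2.30. C1qa was at 31.4, 45.8, 35.6 and 35.3 CPM in control and 172, 146, 271 and 210.0 in CB1R KO libraries. The member that fell, C1qtnf7 (-0.54), is only related in sequence to these chains, and 3 members fell without control library 3 and 2 without WT library 7.

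Genes of antigen presentation on MHC class II rose in 10 of 14 (median 0.64, WT 0.66). H2-Ab1 was at 485, 404, 428 and 362 CPM in control and 600.2, 579, 812 and 866 in CB1R KO libraries (log2 fold change 0.77, standard error 0.13, adjusted p = 5.56e-04), and the endoprotease Lgmn rose by 1.26. H2-Ob, the B cell modulator of peptide loading, was the one that fell (-0.77, where the adjusted p was between 0.0517 and 0.111 without control library 3 or CB1R KO libraries 9, 10 or 11). Of 30 interferon-stimulated genes 17 rose and none fell, with Isg15 at 8.14, 7.75, 6.47 and 5.48 CPM in control and 17.8, 16.2, 24.5 and 22.0 in CB1R KO libraries (log2 fold change 1.53, standard error 0.17, adjusted p = 1.8e-05) and the antiviral enzyme Rsad2 at 1.34. Of these, 11 rose without CB1R KO library 10, and 1 fell without control library 21. Dendritic cell genes rose in 5 of 10, led by the migration gene Fscn1 (1.99), Batf3 (1.48) and Itgae (1.19), while Clec9a of the cross-presenting cells fell (-0.56). Without WT library 4, 2 fell.

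Genes of T and NK cells and of neutrophils fell more often than they rose. Of 18 T and NK cell genes 10 fell and 2 rose (median -0.53, WT -0.98). The killer cell protease Gzma was at 34.7, 27.0, 28.8 and 27.8 CPM in control and 15.9, 17.7, 11.4 and 16.5 in CB1R KO libraries (log2 fold change -0.94, standard error 0.14, adjusted p = 2.13e-04), above WT (log2 difference 0.92, 95% interval 0.62 to 1.23, adjusted p = 0.0177, up to 0.0679 with 1 library left out). Perforin, Prf1, was likewise below control (-1.01) and above WT (log2 difference 0.75, 95% interval 0.43 to 1.07, adjusted p = 0.0347, up to 0.132 with 1 library left out). The NK receptors Ncr1 (-1.18) and Klrb1c (-0.97) fell, and the regulatory T cell genes Foxp3 (1.61 to 2.56 CPM in control, 3.32 to 6.65 in CB1R KO; log2 fold change 1.21, standard error 0.25, adjusted p = 0.00191) and Ctla4 (1.43) rose. The T cell receptor chain Cd3e was not separated from control (log2 fold change -0.26, standard error 0.21, adjusted p = 0.358). Summed T and NK markers were 146 to 157 CPM in CB1R KO and 164 to 217 in control libraries.

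In B and plasma cells, 3 of 11 genes rose and 3 fell (54.5% called, against 35.4% of all genes tested). Jchain, which joins secreted antibody, was at 18.5, 20.7, 13.6 and 19.5 CPM in control and 56.8, 53.4, 68.0 and 184 in CB1R KO libraries (log2 fold change 2.34, standard error 0.63, adjusted p = 0.0106), with library 11 highest. Sdc1 (0.50) and Xbp1 (0.29, where the adjusted p was 0.0504 without control library 21 and 0.0532 without CB1R KO library 10), which other cells also use, rose as well. The B cell genes Pax5 (-1.09, where the adjusted p was 0.0586 without control library 3) and Cd79a (-0.84, where the adjusted p was between 0.0531 and 0.183 without control libraries 3 or 24 or WT libraries 2 or 7 or CB1R KO libraries 8, 9, 10 or 11) fell. The number that fell was 0 without control library 3, 1 without control library 24 or CB1R KO library 8, 9 or 10, and 5 without control library 26 or WT library 4. Neutrophil genes fell in 6 of 10, and the 1 that rose was Lcn2, an iron-binding protein that injured epithelium also makes (73.7 to 118 CPM in control, 391 to 407 in CB1R KO; log2 fold change 2.20, standard error 0.15, adjusted p = 3.28e-07). S100a8 and S100a9, the main cytosolic proteins of neutrophils, were high in control libraries 3 and 26: S100a9 was at 187, 40.8, 29.9 and 151 CPM in control and 42.9, 53.8, 27.7 and 23.4 in CB1R KO libraries (log2 fold change -1.48, standard error 0.49, adjusted p = 0.031). For S100a9 the adjusted p was between 0.083 and 0.119 without control libraries 3 or 26 or CB1R KO libraries 10 or 11, and for S100a8 (-1.40) the adjusted p was between 0.0508 and 0.139 without control libraries 3 or 26 or WT libraries 4-B2 or 7 or CB1R KO libraries 8, 10 or 11. The neutrophil count of falls was 2 without control library 3 or 26 or CB1R KO library 11 and 3 without library 10, and the receptor Cxcr2 (-1.29) also lost its call (the adjusted p was between 0.0623 and 0.0795 without control libraries 3 or 26 or CB1R KO libraries 10 or 11). The part of these control libraries in the falls was not tested further. Red cell genes fell in 5 of 10, with the globin Hba-a1 at 1042, 1316, 1149 and 1133 and 471, 587, 664 and 700.4 CPM (log2 fold change -0.94, standard error 0.12, adjusted p = 3.74e-05) and the haem enzyme Alas2 (-0.81). Of the mast cell list, Hdc, which makes histamine, rose (0.71) and the chymase Cma1 fell (-1.03), 1 of 5 each way (40% called, against 35.4%), with 2 lower without control library 21 or CB1R KO library 8 or 9.

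Type II cell genes were close to control or above it. Of 15 markers 5 rose and 0 fell in CB1R KO lungs, 33.3% against 35.4% of all genes tested (median 0.24), where WT lungs had 3 and 6 (median -0.14). Sftpc was at 10352, 12193, 12284 and 12479 CPM in control and 10083, 11737, 7528 and 12615 in CB1R KO libraries (log2 fold change -0.17, standard error 0.13, adjusted p = 0.335). Library 10 was the lowest. In WT lungs the change of Sftpc was -0.83, and the genotypes differed (log2 difference 0.66, 95% interval 0.39 to 0.93, adjusted p = 0.0289, up to 0.105 with 1 library left out). Sftpa1, another surfactant protein (-0.32, adjusted p = 0.181 against control; log2 difference 0.84, 95% interval 0.47 to 1.21, adjusted p = 0.0371, up to 0.144 with 1 library left out against WT), and Lamp3 of the lamellar bodies (0.00, adjusted p = 0.98; log2 difference 0.51, 95% interval 0.28 to 0.74, adjusted p = 0.0416, up to 0.154 with 1 library left out) had the same order. Sftpd, the surfactant collectin, rose from 439, 602, 546 and 565 to 865, 928, 716 and 938 CPM (log2 fold change 0.68, standard error 0.10, adjusted p = 1.44e-04). The desaturase Scd1 (1.58), the MHC chaperone Cd74 (0.77), lysozyme Lyz2 (0.58) and the alarmin Il33 (0.44) were the others that rose; macrophages make Lyz2 and Cd74 too. The call of Il33 was not stable (the adjusted p was between 0.0509 and 0.117 without control libraries 3 or 26 or WT library 2 or CB1R KO libraries 8, 9 or 10). Summed over the list, CB1R KO libraries held 33910.0, 37956, 29119 and 37891 CPM and control libraries 29037, 31908, 31882 and 31542. Without control library 3 or 26 or CB1R KO library 8, 1 member fell, and without library 9, 2 fell.

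Type I cell genes fell in 6 and rose in 3 of 14. Hopx was at 802, 745, 836 and 862 CPM in control and 565, 570.1, 408 and 492 in CB1R KO libraries (log2 fold change -0.67, standard error 0.11, adjusted p = 2.97e-04), and Cav1 of caveolae (-0.57) and Rtkn2 (-0.53) fell as well. Igfbp2 (1.02), Pdpn (0.47) and Spock2 (0.30) rose, while Ager was at -0.01 (adjusted p = 0.973). Keratins and other genes of transitional alveolar cells rose in 10 of 14 (median 0.89, WT 1.04). Krt8, which marks these cells, was at 155, 181, 179 and 204 CPM in control and 312, 282, 264 and 258 in CB1R KO libraries (log2 fold change 0.63, standard error 0.10, adjusted p = 3.31e-04). The tight junction gene Cldn4 rose most by 2.35 and stayed below WT (log2 difference -0.90, 95% interval -1.28 to -0.52, adjusted p = 0.0314, up to 0.121 with 1 library left out), and the growth factor Areg (1.96) and Sfn (1.51), a p53 target, rose with it.

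Airway genes fell in part. Of 12 secretory genes 4 fell and 1 rose (41.7% called, against 35.4% of all genes). The club cell protein gene Scgb1a1 was at 15606, 18136, 17862 and 17198 CPM in control and 7434, 8451, 8162 and 7357 in CB1R KO libraries (log2 fold change -1.13, standard error 0.14, adjusted p = 4.19e-05; WT -0.84), and Cyp2f2, the P450 of the same cells, at 2315, 2748, 2763 and 2803 and 1122, 1286, 1017 and 1001 (log2 fold change -1.26, standard error 0.10, adjusted p = 9.52e-07). The knockout libraries lay well below control in both. Chad (-1.09) and Lypd2 (-1.03) also fell. Retnla, a product of type 2 inflammation, rose (2.01; 26.5, 159, 17.9 and 32.2 CPM in control, with library 21 high, and 174, 199, 364 and 215 in CB1R KO libraries), and 2 genes of the list rose without control library 26. The mucin Muc5ac was at 2.79, 3.12, 3.14 and 3.67 CPM in control and 4.25, 4.64, 4.60 and 2.38 in CB1R KO libraries (log2 fold change 0.27, standard error 0.53, adjusted p = 0.724). The WT bleomycin libraries held 9.12, 13.2, 44.4, 50.6 and 14.1 CPM, and the direct difference was the largest fall named here (log2 difference -2.77, 95% interval -3.80 to -1.74, adjusted p = 0.0219, up to 0.0786 with 1 library left out). Of 15 ciliated cell genes 9 fell (WT 4), with Tppp3 of microtubules (-0.83), Cfap126 (-0.65, where the adjusted p was 0.05 without CB1R KO library 10 and 0.0652 without CB1R KO library 11) and the dynein gene Dnai1 (-0.57). Without CB1R KO library 11, 6 fell, and none of the 15 differed from WT in the direct test. Foxj1, the master regulator of cilia, was not separated from control (log2 fold change -0.17, standard error 0.14, adjusted p = 0.374), and the list sum was 669 to 852 CPM in CB1R KO and 950.5 to 1030.4 in control libraries.

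Blood and lymph vessel genes went in opposite directions. Of 14 capillary genes 10 fell and none rose (median -0.44, WT 13 and -0.52), and none differed from WT in the direct test. The endothelin receptor Ednrb was at 155, 174, 164 and 147 CPM in control and 90.2, 88.5, 41.7 and 39.4 in CB1R KO libraries (log2 fold change -1.31, standard error 0.23, adjusted p = 6.37e-04). Library 8 kept the highest value and library 11 the lowest. The carbonic anhydrase Car4 (-0.77), the VEGF receptor Kdr (-0.74) and the pan-endothelial Pecam1 (-0.34) fell too. Of 8 lymphatic genes 5 rose and none fell (median 0.67). Prox1, the lymphatic identity factor, was at 5.77, 3.91, 4.61 and 5.93 CPM in control and 10.0, 8.99, 25.8 and 15.7 in CB1R KO libraries (log2 fold change 1.58, standard error 0.28, adjusted p = 6.44e-04), Ccl21a, which guides dendritic cells, rose by 1.38 and Reln by 1.02. The defining marker Lyve1 was not separated from control (log2 fold change -0.51, standard error 0.33, adjusted p = 0.246). Markers of tissues at the lobe's edge varied with the library: the adipocyte sum was 315, 113, 87.0 and 399 CPM in control and 76.1, 324, 138 and 338 in CB1R KO libraries with no gene called of 11 and 1 that fell without control library 21, and with Adipoq at 2.24 to 15.3 and 2.68 to 12.6 CPM. Genes of the heart muscle sleeve of pulmonary veins summed to 1300.0, 826, 916 and 2045 and 559, 986, 634 and 549. In that list 4 of 12 fell in CB1R KO lungs (33.3%, against 35.4% of all genes; WT 12), with Myl7 (-1.13, where the adjusted p was between 0.0518 and 0.17 without control libraries 3, 24 or 26 or WT library 2 or CB1R KO libraries 8, 10 or 11), Myh7 (-1.06) and Ryr2 (-0.98, where the adjusted p was 0.0699 without control library 26 and 0.0604 without CB1R KO library 11). That count was 1 without control library 26 or CB1R KO library 11, 2 without library 8 or 10, and 7 without library 9 or WT library 4 or 4-B2. None of the 12 differed from WT in the direct test. Mesothelial genes fell in 4 of 9 (44.4% called, against 35.4%), among them Muc16 (-0.86), Upk3b (-0.74) and Gpm6a (-0.67). Of 5 skeletal muscle genes 1 fell (20%, against 35.4% called of all genes), Tnnt3 (-0.87, where the adjusted p was between 0.0568 and 0.106 without control libraries 21 or 26 or CB1R KO libraries 8, 9 or 11). The part of these tissues in the results above was not tested.

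Enzymes that handle foreign compounds and oxidised lipids fell more often than they rose. Of 42 genes of cytochrome P450, flavin monooxygenase, aldehyde-oxidising and glutathione transferase enzymes, 21 fell and 1 rose (median -0.46; WT 28 and 3, median -0.74). In the direct test, 2 of them were higher and 1 lower than in WT lungs. Gstm1 was at 369, 389, 396 and 412 CPM in control and 192, 199, 194 and 194 in CB1R KO libraries (log2 fold change -1.01, standard error 0.09, adjusted p = 2.84e-06). It lay between control and WT, with a direct difference that passed the test (log2 difference 0.52, 95% interval 0.34 to 0.70, adjusted p = 0.0186, up to 0.0712 with 1 library left out). Aox3, an aldehyde oxidase, was at 183, 232, 233 and 228 and 91.6, 93.7, 77.2 and 91.1 (log2 fold change -1.31, standard error 0.09, adjusted p = 3.57e-07) and also above WT (log2 difference 0.40, 95% interval 0.22 to 0.59, adjusted p = 0.0391, up to 0.144 with 1 library left out). Fmo2, the lung flavin monooxygenase (-1.76), Cyp4b1 (-1.56), Cyp2d22 (-1.46) and Gsta3 (-1.37) fell further. The one that rose was Gstm4 (0.36), and 2 rose without WT library 4-B2 or 7 or CB1R KO library 8 or 9. Gstm genes are near copies of one another, so the estimated counts may be split between them.

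Lipid and energy genes were divided. In fatty acid and triglyceride synthesis 7 of 27 rose and 7 fell, with Scd1 at 1968, 936, 796 and 919 CPM in control and 2931, 3925, 3455 and 3452 in CB1R KO libraries (log2 fold change 1.58, standard error 0.24, adjusted p = 1.96e-04), Me1 at 0.74 and the transcription factor Mlxipl at -1.02. Of that list 51.9% passed the test, against 35.4% of all genes tested, and without control library 3, 11 rose. Cholesterol synthesis genes rose in 9 of 23 (43.5% called in either direction, against 35.4%), led by Cyp51 (0.76), Mvd (0.69) and Hsd17b7 (0.65), and their regulator Srebf2 was the one that fell (-0.22, where the adjusted p was between 0.0503 and 0.102 without control libraries 3 or 21 or CB1R KO library 11). Without control library 24 or 26, 2 fell. In fatty acid oxidation 33.3% of 24 genes passed the test, against 35.4% of all genes: 6 fell, 3 without library 10, with the acyl-CoA synthetase Acsl1 (-0.73), and 2 rose, 1 without control library 24 or 26 or CB1R KO library 11. Glycolysis rose in 7 of 21, among them Pgam1 (0.62), Ldha (0.58) and Eno1 (0.56), and fell in 3 (47.6% called, against 35.4%). The glucose transporter Slc2a1 was at 25.7, 22.5, 22.3 and 26.0 CPM in control and 22.4, 24.5, 29.6 and 22.4 in CB1R KO libraries (log2 fold change 0.03, standard error 0.10, adjusted p = 0.82), and below WT (log2 difference -0.58, 95% interval -0.77 to -0.38, adjusted p = 0.0177, up to 0.0742 with 1 library left out). Endoplasmic reticulum stress genes rose in 15 of 24 (median 0.43). Sdf2l1 was at 16.9, 13.6, 12.9 and 11.7 CPM in control and 31.7, 28.9, 38.3 and 34.9 in CB1R KO libraries (log2 fold change 1.28, standard error 0.15, adjusted p = 2.01e-05), the chaperone Hspa5 rose by 0.73, and Herpud1 was the one that fell (-0.81). Of 20 targets of Atf4, the stress factor of amino acid supply, 8 rose, led by the cystine transporter Slc7a11 (1.88), Psat1 of serine synthesis (1.25) and Pycr1 of proline synthesis (1.22), and 2 fell, 1 without control library 21 or 26. Of the 20, 50% passed the test, against 35.4% of all genes.

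Among antioxidant genes and Nrf2 targets 10 of 24 rose and 5 fell, 3 without control library 24 or 26. Haem oxygenase Hmox1 (0.94, where the adjusted p was between 0.0504 and 0.0629 without control libraries 3 or 24 or CB1R KO libraries 10 or 11) and Srxn1 (0.76) rose, and catalase Cat fell (329, 344, 356 and 307 CPM in control, 229, 230.1, 198 and 196 in CB1R KO; log2 fold change -0.65, standard error 0.08, adjusted p = 2.33e-05), as did Sod1 (-0.58). Prdx6, a peroxidase of surfactant lipids, was at 274, 389, 435 and 491 CPM in control and 241, 254, 226 and 52.2 in CB1R KO libraries (log2 fold change -1.04, standard error 0.35, adjusted p = 0.0307). Library 11 was far below the other 3 knockout libraries in Prdx6, and the adjusted p was between 0.0515 and 0.0751 without control libraries 21, 24 or 26.

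Circadian clock genes split control libraries as well as groups. Of 20 clock genes 3 rose and 11 fell in CB1R KO lungs (median -0.78, WT -0.80). Control library 3 stood opposite to the other controls: Arntl, which drives the loop, was at 26.9, 4.69, 5.38 and 3.16 CPM in control and 10.5, 15.4, 15.3 and 11.1 in CB1R KO libraries (log2 fold change 0.37, standard error 0.52, adjusted p = 0.61), and the repressor Per2 at 22.4, 187, 226 and 249 and 88.6, 61.0, 46.0 and 41.7 (log2 fold change -1.53, standard error 0.53, adjusted p = 0.0358). Without control library 3, 5 clock genes rose and 14 fell, with a median of -1.03, Arntl at 1.56 and Per2 at -1.90. The number that fell was 7 without control library 21 and 6 without CB1R KO library 10 or 11. The output gene Tef was at 168, 542, 562 and 559.8 and 258, 185, 148 and 182 CPM (log2 fold change -1.24, standard error 0.32, adjusted p = 0.00816), Ciart at -1.34, Hlf at -1.78 and Cry1, a repressor, at -1.15. Nfil3, which opposes them, rose from 11.5, 6.37, 5.32 and 10.6 to 13.2, 22.6, 16.8 and 16.3 CPM (log2 fold change 1.03, standard error 0.23, adjusted p = 0.00301), as did Bhlhe40 (0.78) and Clock (0.46). Single libraries decided the call of Per2 (the adjusted p was between 0.0626 and 0.0985 without control libraries 21, 24 or 26 or CB1R KO libraries 9, 10 or 11), Per3 (-1.36, where the adjusted p was 0.05 without CB1R KO library 10 and 0.0549 without CB1R KO library 11), Dbp (-1.25, where the adjusted p was between 0.0504 and 0.0929 without control libraries 21 or 24 or CB1R KO libraries 9, 10 or 11) and Clock (the adjusted p was between 0.0557 and 0.0738 without control libraries 21, 24 or 26 or CB1R KO libraries 9 or 10). None of the list differed from WT in the direct test.

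**Figure D4:**
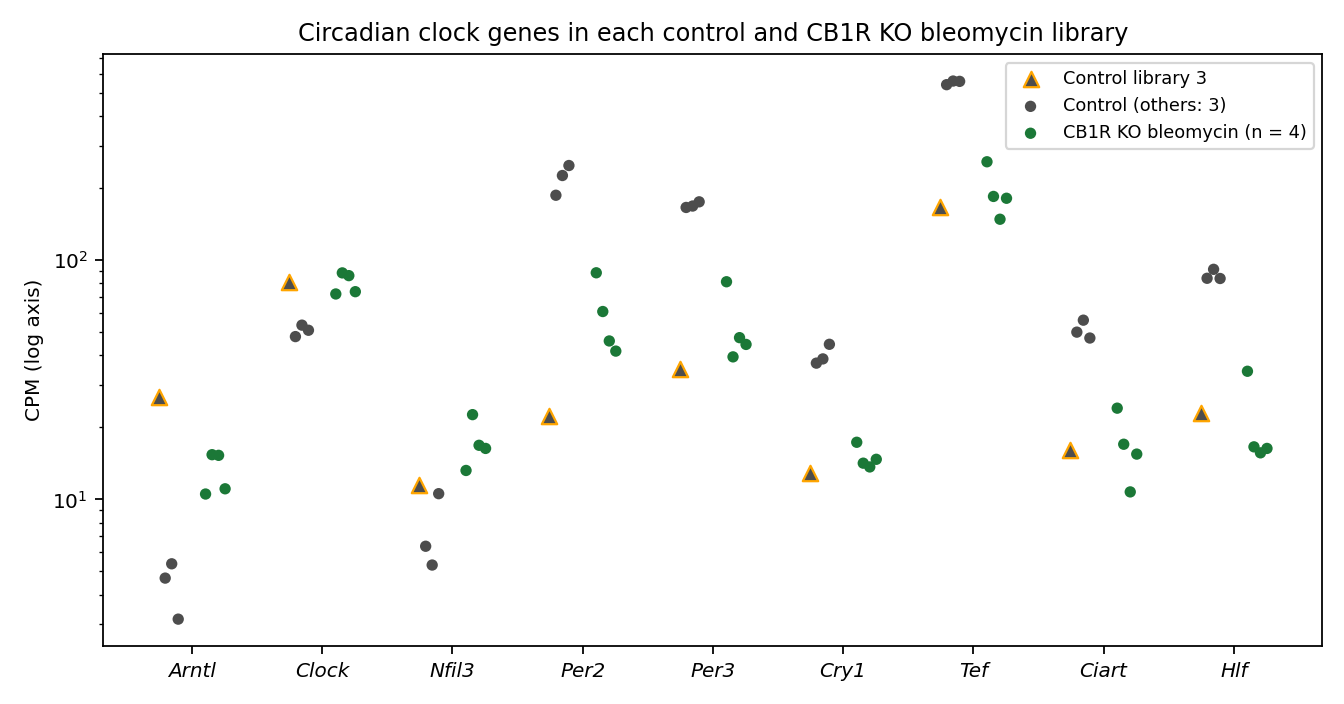
CPM on a log axis of 9 clock genes in each control (grey) and CB1R KO bleomycin (green) library, 1 point a library, with control library 3 drawn as a triangle. The triangle lies above the other controls in Arntl (26.9 CPM) and Clock and below them in Per2, Per3, Cry1, Tef, Ciart and Hlf, within or below the CB1R KO range of those 6 genes.

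The E-box CACGTG, to which the clock's activators bind, was in the promoter window of 5 of the 16 clock genes with one (31.2%), against 9.43% of the 12064 windows of genes tested; it reads the same on both strands. The windows of Ciart and Cry1, whose RNA changed by -1.34 and -1.15 on the log2 scale, are shown with the E-box in capitals, 5' to 3' along the gene in RefSeq GRCm38.p6:
Ciart (chr3:95882179-95882478, minus strand): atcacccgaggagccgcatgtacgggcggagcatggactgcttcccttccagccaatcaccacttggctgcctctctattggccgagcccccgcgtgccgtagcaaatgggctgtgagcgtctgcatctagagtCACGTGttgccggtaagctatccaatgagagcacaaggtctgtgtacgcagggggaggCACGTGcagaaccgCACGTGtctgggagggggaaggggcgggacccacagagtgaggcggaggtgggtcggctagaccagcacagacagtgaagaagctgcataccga
Cry1 (chr10:85185005-85185304, minus strand): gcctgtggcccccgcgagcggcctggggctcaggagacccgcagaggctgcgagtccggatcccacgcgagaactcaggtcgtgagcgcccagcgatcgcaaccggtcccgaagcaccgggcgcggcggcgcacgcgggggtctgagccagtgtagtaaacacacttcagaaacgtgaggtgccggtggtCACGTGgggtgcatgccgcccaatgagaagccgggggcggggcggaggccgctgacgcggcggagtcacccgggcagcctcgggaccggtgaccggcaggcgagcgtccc

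Immediate early genes, which respond within minutes to handling and stress, fell in 8 of 25 and rose in 3 (44% called, against 35.4% of all genes tested). Among these, Nr4a1 (-0.97, where the adjusted p was 0.0576 without control library 26 and 0.0529 without CB1R KO library 10), Fosb (-0.93, where the adjusted p was between 0.0511 and 0.14 without control libraries 3, 24 or 26 or WT library 2 or CB1R KO libraries 9, 10 or 11) and the phosphatase Dusp1 (-0.87, where the adjusted p was between 0.0883 and 0.104 without control library 26 or CB1R KO libraries 10 or 11) fell. The count of falls was 4 without control library 26 or CB1R KO library 11 and 3 without library 10. Egr2 (1.05), Fosl2 (0.30, where the adjusted p was between 0.0572 and 0.107 without control libraries 3, 21 or 24 or CB1R KO libraries 8, 9 or 10) and Myc (0.71) rose, and Myc was below WT (log2 difference -0.95, 95% interval -1.24 to -0.65, adjusted p = 0.0177, up to 0.0663 with 1 library left out).

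In the endocannabinoid system, 6 of 20 genes rose and 2 fell, 40% against 35.4% of all genes tested (median 0.10, WT 0.09). The receptor gene Cnr2 was not separated from control (29.8, 17.7, 18.6 and 18.0 CPM in control, 15.9, 17.3, 17.9 and 14.3 in CB1R KO; log2 fold change -0.37, standard error 0.19, adjusted p = 0.135), and the lysophospholipid receptor gene Gpr55 rose (0.80). Of the enzymes, Daglb, which makes the endocannabinoid arachidonoylglycerol, rose from 21.7, 24.0, 23.6 and 25.6 to 38.5, 32.9, 34.8 and 40.3 CPM (log2 fold change 0.63, standard error 0.12, adjusted p = 8.79e-04). Mgll, which degrades that ligand, was at -0.24 (adjusted p = 0.0823), the anandamide hydrolase Faah fell (log2 fold change -0.44, standard error 0.11, adjusted p = 0.00644) and the acid amidase Naaa rose (0.53). Cnrip1, whose product binds the tail of CB1R, fell (-0.36, where the adjusted p was 0.0714 without control library 21 and 0.0787 without CB1R KO library 10), and without library 10 it was 1 gene of the list that fell. No gene of the list differed from WT in the direct test.

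Nerve, channel and lipid mediator genes were mixed. Bdnf, the brain-derived neurotrophic factor, was at 28.8, 34.4, 39.1 and 33.4 CPM in control and 18.8, 20.8, 18.1 and 17.9 in CB1R KO libraries (log2 fold change -0.85, standard error 0.10, adjusted p = 1.88e-05). The WT libraries held 30.4, 26.4, 32.4, 30.5 and 28.6 CPM, and the knockout was below them as well (log2 difference -0.65, 95% interval -0.85 to -0.46, adjusted p = 0.016, up to 0.0555 with 1 library left out). The serotonin receptor Htr2b (1.69) and the neurotrophin receptor Ntrk2 (1.04, where the adjusted p was between 0.0521 and 0.107 without control libraries 21, 24 or 26 or CB1R KO libraries 8, 9 or 10) rose, and the muscarinic receptor Chrm3 (-1.56) and Ntf3 (-1.03) fell. In prostaglandin and leukotriene genes 11 of 30 rose, with the thromboxane synthase Tbxas1 (1.78) and the prostaglandin D synthase Hpgds (1.69), and 4 fell, with the receptor Ptgfr (-1.31) and Hpgd, which inactivates prostaglandins (527, 676, 621 and 712 CPM in control, 331, 371, 207 and 242 in CB1R KO; log2 fold change -1.14, standard error 0.19, adjusted p = 4.41e-04). Coagulation genes rose in 11 of 23, among them Tfpi2 (1.80), F7 (1.48) and F10 (1.36), and F5 (-1.05) and Thbd (-0.46) fell. Of the 30 prostaglandin and leukotriene genes 50% were called, and of the 23 coagulation genes 56.5%, against 35.4% of all genes tested.

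The direct test sorted 150 genes by where the knockout stood. In 100 the knockout lay between control and WT and differed from both, 42 were called in WT but not in the knockout against control, and in 8 the knockout differed from control and from WT in the same direction, also where WT had moved the other way. Of the 100, 62 were lower and 38 higher than in WT, and of the 42, 28 were lower and 14 higher. The 42 are not shown to equal control, since a change too small for the test would join them. Those with the lowest p in the direct test were Tagln (-0.63 against WT), the amino acid transporter Slc38a5 (-0.36 against control, 0.85 against WT), Slc2a1 (-0.58), the AP-1 member Fosl1 (-2.28 against WT), Zswim4 (-0.37), the protocadherin Pcdhga3 (-1.04), Muc5ac (-2.77) and the smooth muscle actin Actg2 (-0.80). Fosl1 was at 0.238, 0.180, 0.192 and 0.258 CPM in control, 0.458, 0.241, 0.311 and 0.129 in CB1R KO and 0.950, 1.05, 1.19, 1.94 and 1.11 in WT libraries, so that only the WT libraries stood out. Slc38a5 was at 30.4 to 38.9 CPM in control, 22.5 to 33.4 in CB1R KO and 12.9 to 17.6 in WT libraries.

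**Figure D5:**
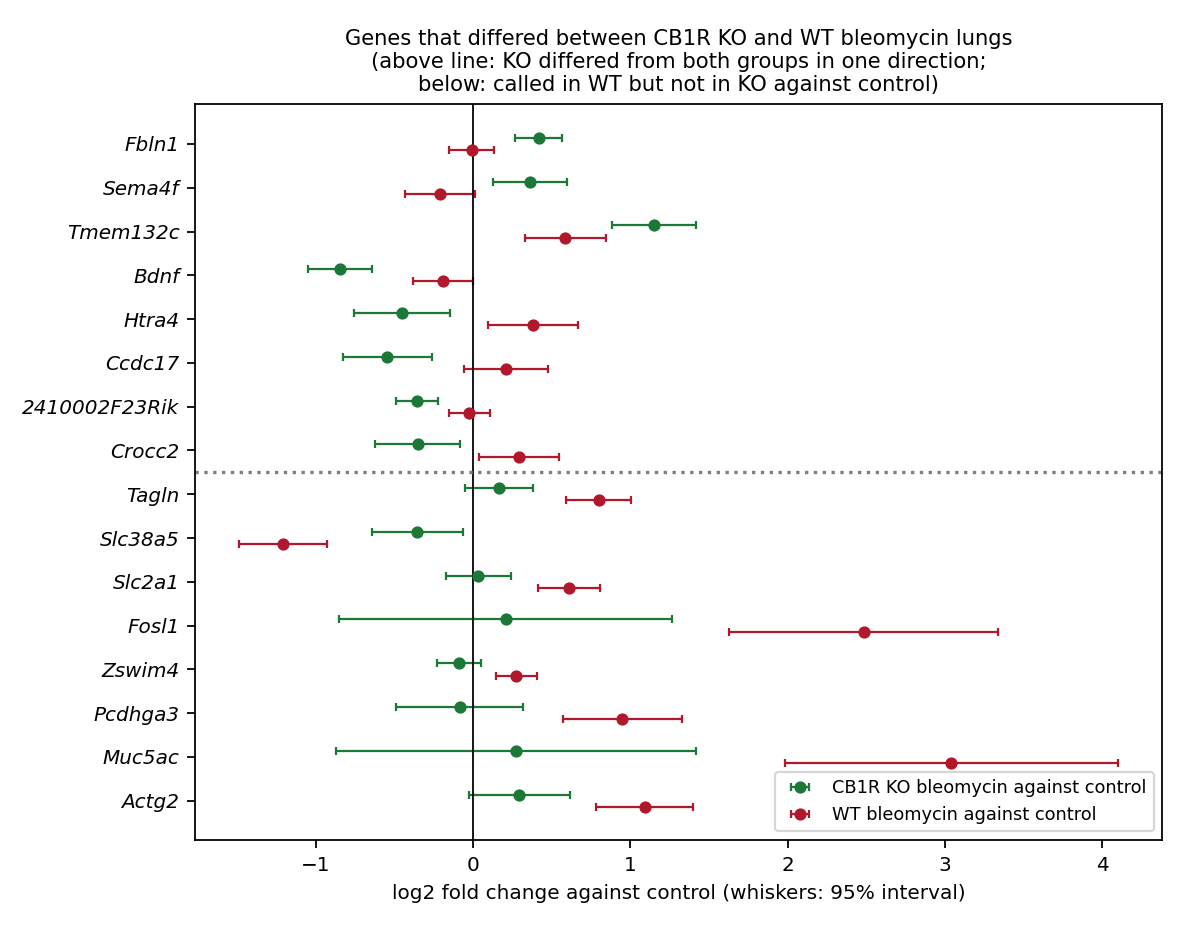
Log2 fold change against control (horizontal axis, with 95% interval) of CB1R KO bleomycin (green) and WT bleomycin lungs (red), for genes that differed between the genotypes. Above the dotted line are the 8 genes in which the knockout differed from control and WT in the same direction, with Htra4 on opposite sides of 0 in the 2 genotypes, and below it the 8 of lowest p among those called in WT but not in CB1R KO lungs, where the WT points lie further from 0, Muc5ac and Fosl1 furthest.

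The 8 genes in which the knockout differed from both groups in the same direction are given next. Fibulin 1, a basement membrane glycoprotein, was at 83.9, 96.9, 80.4 and 81.2 CPM in control, 121, 119.7, 108 and 109 in CB1R KO and 81.5, 83.0, 86.9, 81.4 and 92.2 in WT libraries (Fbln1, log2 fold change 0.42, standard error 0.07, adjusted p = 5.03e-04; against WT, log2 difference 0.43, 95% interval 0.28 to 0.57, adjusted p = 0.0177, up to 0.0704 with 1 library left out). Tmem132c was at 14.4 to 22.1, 33.2 to 46.5 and 25.7 to 29.2 CPM in the same 3 groups (log2 fold change 1.15, standard error 0.12, adjusted p = 1.37e-05), and Sema4f, a semaphorin, rose by 0.36 (the adjusted p was 0.0534 without control library 3 and 0.0549 without control library 26). In Htra4, a serine protease, the genotypes lay on opposite sides of control: it rose in WT lungs (0.38, adjusted p = 0.0293) and fell in the knockout (-0.45, where the adjusted p was 0.0718 without control library 21 and 0.051 without CB1R KO library 10). The other falls besides Bdnf were the coiled-coil gene Ccdc17 (-0.55, WT 0.21 with an adjusted p = 0.181), 2410002F23Rik (-0.36, WT -0.02) and Crocc2, of the ciliary rootlet (-0.35, WT 0.29 with an adjusted p = 0.055). For Crocc2 the adjusted p was between 0.0503 and 0.14 without control libraries 3, 21, 24 or 26 or WT library 5 or CB1R KO libraries 8, 9, 10 or 11. The number of genes that differed between the genotypes rested on single libraries: 9 without CB1R KO library 8, 1 without library 9, 653 without library 10 and 3 without library 11. It was 24 to 230 when a WT library was left out. The split into 100, 42 and 8 therefore holds for the 13 libraries fitted together.

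Genes beside Cnr1 were examined because a deletion can carry its neighbours along from the strain in which it was made. Of 20 genes tested within 5 Mb of Cnr1 in RefSeq GRCm38.p6, 4 rose and 1 fell against control, 25% against 35.4% of all genes, and none differed from WT in the direct test, with 3 at an unadjusted p under 0.05. Rragd, a GTPase of nutrient sensing, had the largest change (16.4, 14.7, 12.2 and 13.3 CPM in control, 24.3, 25.1, 21.9 and 27.7 in CB1R KO; log2 fold change 0.81, standard error 0.11, adjusted p = 8.26e-05; against WT, log2 difference 0.37, 95% interval 0.15 to 0.59, adjusted p = 0.0955). The other rises were Mdn1 (0.28, where the adjusted p was 0.0563 without control library 21 and 0.0503 without CB1R KO library 10), Ube2j1 (0.19, where the adjusted p was between 0.0533 and 0.0731 without control libraries 3 or 24 or CB1R KO libraries 9 or 10) and C9orf72 (0.27, where the adjusted p was between 0.0557 and 0.07 without control libraries 24 or 26 or CB1R KO library 11), and Cfap206 fell (-0.46, where the adjusted p was between 0.0586 and 0.0916 without control libraries 3, 21 or 26 or CB1R KO libraries 8, 10 or 11). Of 8 genes that differ between strains or sexes, 1 rose (12.5%, against 35.4% called of all genes), Ide (0.59, where the adjusted p was between 0.0627 and 0.0699 without control libraries 21, 24 or 26 or CB1R KO library 11), and 2 rose without WT library 5. The Y-linked genes Ddx3y, Uty, Kdm5d and Eif2s3y were counted in all 13 libraries.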

How the data were processed

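Per the labels and the study's methods, the authors quantified poly(A) RNA reads with Kallisto against the mouse reference of Ensembl (GRCm39), for protein-coding transcripts, and summed estimated counts and TPM per gene symbol. The deposited estimated counts were not normalized, 70.5% of their values were not whole, and 301 genes were at 0 in every library. The deposited TPM values, scaled by the authors for transcript length and library total, were used in 2 alternatives. The 13 single-sample tables held the same values as the series tables, and 1 column of no sample was not used.

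Estimated counts were rounded, filtered with filterByExpr and normalized by TMM. The 13 libraries were fitted in 3 groups with no covariates in R 4.3.3 with edgeR 4.0.16 (quasi-likelihood), with Benjamini-Hochberg adjustment at 0.05 and 95% intervals of differences. Each standard error is the size of the fitted coefficient, on the log2 scale, divided by the square root of its F statistic. Intervals are centred on the printed log2 fold change, which edgeR draws slightly towards 0. The coefficient and the printed value can differ in genes of low counts. The procedure was tested on simulated data. Alternatives used RLE or upper-quartile factors, no filter or a minimum of 10 counts per library, DESeq2 1.42.0, edgeR on 2 groups, limma 3.58.1 on log2 TPM, the libraries with lower-case labels, library 11 thinned to the depth of the other knockout libraries, and each library left out. Tables and plots were made with matplotlib 3.10.9, numpy 2.4.6 and pandas 2.3.3 under Python 3.11.15.

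The 52 gene lists (23 of cell types, 29 of pathways) and the rule for named genes were chosen with earlier results of these data known. The rule took Cnr1, the 12 largest changes and 5 lowest p values in each direction among called genes without overlap and at least 5 CPM on average, leaving out symbols that start with Gm and a digit or end in Rik, 8 genes per class of the direct test, and of each list the 3 largest called changes per direction and the members the study names. Not all of these are printed, some genes are not reported here, and further list members were named after their values were seen. Lists are described by counts and medians, with no set test. P-values set a difference between groups against a fitted variance that holds both the spread between these mice and counting error. Promoter windows are RefSeq's, matched by symbol, and positions near Cnr1 were matched likewise.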

Additional observations from a re-analysis of the deposited data

Results flagged for a closer look

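Among the control and CB1R KO libraries, 686 groups of 4 values (library totals, summed lists and named genes) were checked for 1 library apart from the other 3, and 49 had one; chance gives about 1 in 20 groups, 34.3 here. Values are CPM. Control library 3 was high in Arntl 26.9 (others 3.16 to 5.38), Clock 80.8 (others 47.9 to 53.5), Cnr2 29.8 (others 17.7 to 18.6), Ide 113 (others 66.8 to 69.1), Ly6c2 28.1 (others 10.9 to 13.8) and Scd1 1968 (others 796 to 936). It was low in Aox3 183 (others 228 to 233), Bhlhe40 66.6 (others 97.8 to 104), Cyp2f2 2315 (others 2748 to 2803), Hlf 22.9 (others 83.9 to 91.6), Per3 35.1 (others 166 to 176), Sdc1 218 (others 248 to 253), Sftpa1 2275 (others 2927 to 3052), Sftpc 10352 (others 12193 to 12479), Tef 168 (others 542 to 562) and Thbd 815 (others 1127 to 1149). Of the lists, it was high in the summed fatty acid and triglyceride synthesis list 7528 (others 5875 to 6114) and low in the summed type II cells list 29037 (others 31542 to 31908), the summed airway secretory cells list 18888 (others 21291 to 21642), the summed circadian clock list 1178 (others 2678 to 2824) and the summed coagulation and fibrinolysis list 2738 (others 3103 to 3176). Control library 21 was high in Arg1 48.1 (others 1.78 to 1.86), Dkk2 1.14 (others 0.704 to 0.773), F7 33.5 (others 17.9 to 20), Lcn2 118 (others 73.7 to 77.7), Mmp12 40.7 (others 3.15 to 5.19), Retnla 159 (others 17.9 to 32.2) and Timp1 9.73 (others 3.27 to 4.29), in the summed alveolar macrophages list 2416 (others 1067 to 1201), and low in Cxcl9 0.541 (others 0.897 to 0.966). Control library 24 was high in Tfpi2 2.56 (others 1.37 to 1.44), and control library 26 in Cilp2 5.28 (others 1.98 to 2.50).

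Among the knockout libraries, library 11 held 53463884 estimated counts (others 15252571 to 16605421). Library 11 was high in Jchain 184 (others 53.4 to 68.0) and low in Crocc2 10.0 (others 12.4 to 12.7), Prdx6 52.2 (others 226 to 254) and Srebf2 157 (others 185 to 186). Library 10 was high in Cilp 45.7 (others 24.0 to 27.6), Cthrc1 22.2 (others 8.50 to 10.7), Fn1 4269 (others 2176 to 2351), Lrrc15 6.15 (others 1.24 to 1.86), Tfpi2 7.64 (others 5.17 to 5.49) and Thbs4 31.7 (others 18.3 to 19.2), in the summed glycolysis list 3720.5 (others 3226 to 3309.7), and low in Aox3 77.2 (others 91.1 to 93.7). Library 8 was high in 2410002F23Rik 42.4 (others 39.9 to 39.9), Col23a1 73.5 (others 65.9 to 66.9), Hlf 34.3 (others 15.7 to 16.6) and Lef1 9.48 (others 7.36 to 7.48).

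The genotypes differed in the direct test in 40 named genes, given as log2 differences of CB1R KO from WT bleomycin lungs. The knockout was lower in Muc5ac (-2.77), Fosl1 (-2.28), Fst (-1.49), Timp1 (-1.46), Inhba (-1.41), Ccl2 (-1.29), Adamts4 (-1.18), Pcdhga3 (-1.04), P4ha3 (-1.03), Col28a1 (-1.0), Myc (-0.95), Cldn4 (-0.90), Fn1 (-0.86), Lox (-0.85), Htra4 (-0.83), Actg2 (-0.80), Ccdc17 (-0.76), Bdnf (-0.65), Crocc2 (-0.65), Tagln (-0.63), Slc2a1 (-0.58), Fosl2 (-0.48), Zswim4 (-0.37) and 2410002F23Rik (-0.33). It was higher in Slc7a10 (1.68), Inmt (0.99), Gzma (0.92), Slc38a5 (0.85), Sftpa1 (0.84), Pcolce2 (0.81), Prf1 (0.75), Sftpc (0.66), Sema4f (0.57), Mmp28 (0.56), Tmem132c (0.56), Gstm1 (0.52), Lamp3 (0.51), Thbd (0.49), Fbln1 (0.43) and Aox3 (0.40). None of these calls held with each of the 13 libraries left out in turn: the highest adjusted p of a gene was between 0.0555 and 0.154.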

How the results depend on the processing

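No named gene changed sign in its called comparison under any of the 24 alternatives, and 213 of the 256 named genes called against control stayed past the threshold in each of them that tested the gene. The number of genes called between CB1R KO and control was 4272 to 5449 with each library left out in turn and 4564 to 5702 otherwise. The number that also changed by more than 2-fold was 928 to 1257 with a library left out, and 618 in limma fitted to log2(TPM + 1), where small values are drawn together. The WT bleomycin count was 6656 to 7753 with a library left out. The share of higher calls, 53.8% in the edgeR fit, was 70.3% in that limma fit and 71.4% with 0.1 added in place of 1, and the cause was not tested. The count between CB1R KO and WT bleomycin lungs, 150, was 640 in DESeq2 on all libraries, 644 in DESeq2 on 2 groups, 88 in edgeR on 2 groups, 93 in limma fitted to log2(TPM + 0.1) and 6 with only the libraries whose labels are in lower case, and the cause was not tested. It was 1 to 653 with a library left out. The median log2 fold change turned sign under some alternative for the Wnt, adipocyte, fatty acid and triglyceride synthesis and mast cell lists. No paired analysis was possible because each library is a different mouse and the labels name no pairs. At these totals the standard error of a fold change, on the log2 scale, had a median of 0.12, so a small change was detectable only in genes with little spread.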
